A study of Mus musculus with 12 samples.

Results

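Calpains are cysteine proteinases of the cytosol that are switched on by calcium, and calpastatin is the inhibitor that binds them. The arrays read 9 genes of this system, taken by gene symbol as Capn1, Capn2, Capn3, Capn5, Capn6, Capn7, Capn10, Capns1 and Cast, and they carried 19 probes for these genes among 46632 probes in all. A probe is a short oligonucleotide that captures the RNA of its gene, and its brightness is the measurement. RNA came from femoral head cartilage of TS-4/5∆cat mice, which lack the catalytic domain of both ADAMTS-4 and ADAMTS-5, so that the untreated explants carry that deletion as well. Hips from mice 21 days old were held at 4 per well for 24 h and were then left untreated, given 10 ng/mL IL-1α, an inflammatory cytokine, or given 10 µM retinoic acid, a vitamin A derivative that acts through nuclear receptors. Treatment lasted 3 days, and each treatment had 4 arrays, 2 of the Donut line in batch 1 and 2 of the Gertrude line in batch 2. Batch and line are the same division of the arrays and cannot be told apart. The labels do not say that the arrays came from separate mice, so p-values measure only the spread between arrays, which may be technical.

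The conventional calpains are pairs of a large catalytic subunit, such as those of Capn1 and Capn2, with a small regulatory subunit made from Capns1. They cut their substrates at few positions, and cytoskeletal and adhesion proteins are the best known of these. In cartilage, the proteinase made from Capn2 has been found in chondrocytes and can cut aggrecan, the main proteoglycan of the matrix. Other family members have no calcium-binding domain of the conventional kind (Capn5, Capn6, Capn7 and Capn10), and Capn6 also lacks the cysteine that a calpain needs to cut protein.

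The promoters of Capn6 and Capns1 are shown because these were the members whose response to retinoic acid against untreated passed the test in every setting that was tried, Capn6 downward and Capns1 upward. RefSeq, on the build GRCm38.p6, gave a window of 250 bases before a transcription start for 8 of the 9 members, all but Capn5. The windows of Capn6 at chrX:143827413-143827662 and of Capns1 at chr7:30195154-30195403 both lie on the minus strand, and each is written 5′ to 3′ so that its last base is next to the start. The Capn6 gene itself spans 143802236 to 143827412 of chromosome X. The Capns1 window lies within the span of its gene, 30186934 to 30198883 of chromosome 7. Capitals mark the Sp1 box GGGCGG, read on both strands, and the CCAAT box.
Capn6: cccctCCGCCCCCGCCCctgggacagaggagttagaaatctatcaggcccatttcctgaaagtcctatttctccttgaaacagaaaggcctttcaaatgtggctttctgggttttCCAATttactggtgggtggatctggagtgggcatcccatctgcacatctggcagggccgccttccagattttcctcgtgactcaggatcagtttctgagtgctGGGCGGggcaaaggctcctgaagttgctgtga
Capns1: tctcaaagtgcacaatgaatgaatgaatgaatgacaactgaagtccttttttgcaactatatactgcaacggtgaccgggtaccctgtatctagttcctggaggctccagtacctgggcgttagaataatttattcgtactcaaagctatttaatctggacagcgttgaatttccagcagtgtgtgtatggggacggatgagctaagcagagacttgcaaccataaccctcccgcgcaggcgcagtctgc
The Capn6 window held GGGCGG at 3 positions, starting at -245 and -239 on the minus strand of the window and at -32 on the plus strand, and CCAAT at -135, all counted from the transcription start. GGGCGG was found in 32.74% and CCAAT in 33.85% of the 32851 promoters of this length in the table. The Capns1 window held none of the 6 motifs searched. The half-site of retinoid receptors, AGGTCA, was in 14.02% of all promoters and in 1 of the 13 windows of the members, a window of Cast. These matches describe letters in a window and are not evidence of binding.

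Values below are log2 intensities after background correction and quantile normalization. A probe counts as detected on an array when its detection p was under 0.05, and it was kept when detected on at least 4 of the 12 arrays. The filter kept 18200 probes, among them 13 probes of 8 of the calpain and calpastatin genes. Of these 13, 8 probes were detected on every array. The 6 probes that were not kept were detected on 0 arrays, and they included the only Capn1 probe, ILMN_2767401, whose raw intensity ranged from 25.1 to 49.1. Capn1 therefore has no measured level here. The others not kept were 1 of 5 Capn2 probes, 2 of 3 Capn3 probes and 2 of 4 Cast probes, so that a gene with kept probes could also have probes that read nothing. Levels of different probes are not set against each other, since each probe captures with its own efficiency.

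The arrays of one treatment and batch correlated at 0.983 to 0.995 over the kept probes, and those of one treatment in different batches at 0.868 to 0.902. Detected probes numbered 13786 to 14965 per array in batch 1 and 16732 to 19485 in batch 2, where the highest number belonged to untreated replicate 2. All 4 genes of a retinoic acid response list, Cyp26a1, Cyp26b1, Rarb and Dhrs3, rose with retinoic acid, and 2 of the 3 kept genes of an IL-1 list, Nos2 and Lcn2, rose with IL-1α. Of 10 chondrocyte markers, 8 were kept, and Matn3 was detected on 0 arrays.

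**Figure D1:**
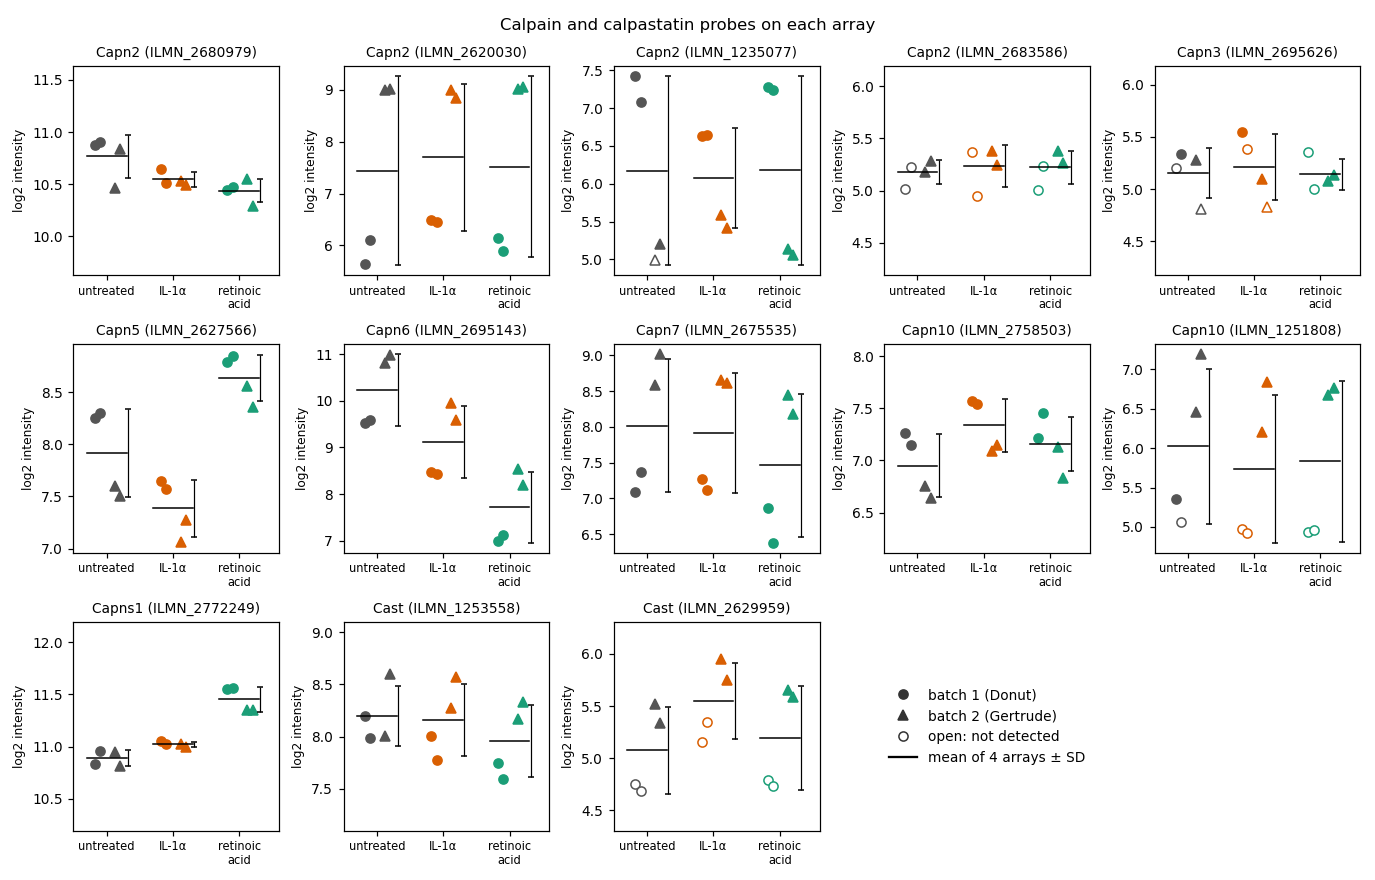
Log2 intensity (y axis) of the 13 kept calpain and calpastatin probes in untreated, IL-1α and retinoic acid cartilage (x axis), with 1 point per array, circles for batch 1 and triangles for batch 2, open where the probe was not detected, and a line with a bar for the mean ± SD of 4 arrays. Capn6 steps down from untreated through IL-1α to retinoic acid in both batches, Capns1 is highest with retinoic acid, and several probes, such as Capn7 and Capn2 ILMN_2620030, differ more between the batches than between the treatments.

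Retinoic acid lowered Capn6 and Capn7 and raised Capn5 and Capns1. By limma, which fits a linear model to every probe and shares information on the spread between probes, 4 of the 13 probes passed an adjusted p of 0.05 in retinoic acid against untreated, 2 higher and 2 lower, where 35.4% of all kept probes passed (18.2% higher and 17.1% lower). The share of members is near that background. Of all probes called, 51.6% were higher with retinoic acid, and 65.6% were when a scaling to one median replaced the quantile step. The median log2 difference over the 13 probes was 0.00, beside 0.02 over all kept probes. The retinoic acid and untreated arrays did not overlap for 3 of the 13 probes, beside 16.9% of all kept probes.

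With IL-1α against untreated, Capn5 and Capn6 fell, while 1 probe each of Capn10 and Cast rose. These 4 probes of 13 compare with 29.3% of all kept probes (15.2% higher and 14.1% lower), and the median over the members was -0.04, beside 0.02 over all kept probes. The arrays did not overlap for 1 member, Capns1, beside 13.5% of all kept probes. Retinoic acid against IL-1α, which asks what separates the 2 treatments, gave 5 of 13 probes, with Capn5 and Capns1 higher and Capn6, Capn7 and 1 Cast probe lower, where 31.1% of all kept probes passed (15.2% higher and 15.8% lower). Of all probes called in that comparison 49.0% were higher, and 65.6% were with scaling to one median. The median over the members was -0.11, beside -0.03 over all kept probes, and the arrays did not overlap for 2 members, Capn5 and Capns1, beside 17.7% of all kept probes. The 3 comparisons share arrays with each other.

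**Figure D2:**
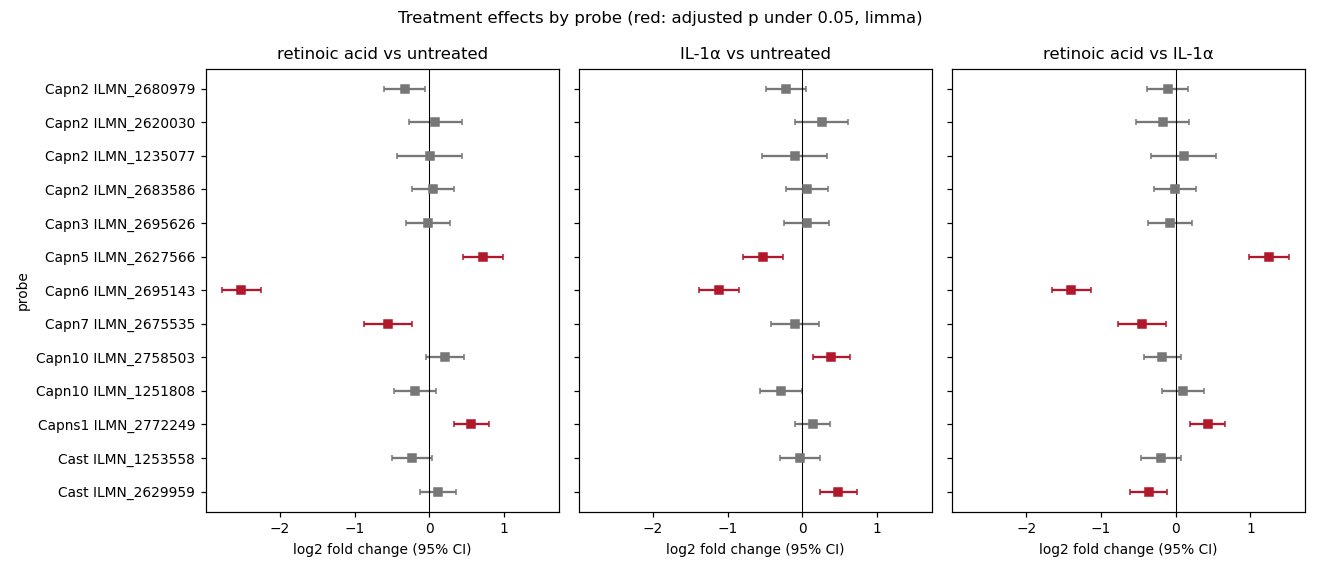
Log2 fold change by limma with its 95% confidence interval (x axis) for each kept probe (y axis) in the 3 comparisons, over 4 arrays per treatment, with red for an adjusted p under 0.05. Capn6 has the largest change of the members in retinoic acid against untreated, at -2.51, while the 4 Capn2 probes lie between -0.33 and 0.08 in that comparison.

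Capn6 stood out among the members for the size of its change. It encodes a calpain without protein-cutting activity that is known to bind and stabilise microtubules. On probe ILMN_2695143, untreated cartilage gave 9.52 and 9.60 for the batch 1 replicates and 10.81 and 10.99 for those of batch 2. Cartilage given IL-1α read lower, at 8.48 and 8.43, then 9.95 and 9.59. Cartilage given retinoic acid was the lowest, at 7.0 and 7.13, then 8.55 and 8.19. Within each batch the order was untreated, then IL-1α, then retinoic acid, with no overlap between neighbours, and across the batches only retinoic acid and untreated were fully apart. The means were 10.23 ± 0.78, 9.11 ± 0.77 and 7.72 ± 0.77 (SD, n = 4), in that order, and most of that SD is the distance between the batches. Retinoic acid lowered Capn6 by a log2 difference of -2.51 (95% confidence interval -2.78 to -2.25, limma adjusted p = 7.38e-09), which is 5.71-fold, and the 2-sided exact permutation test over arrays gave p = 0.0286, the smallest that 4 arrays against 4 allow. IL-1α lowered it by a log2 difference of -1.12 (95% confidence interval -1.38 to -0.85, limma adjusted p = 2.53e-05), or 2.17-fold. Retinoic acid was below IL-1α by a log2 difference of -1.40 (95% confidence interval -1.66 to -1.14, limma adjusted p = 1.51e-06). The effects were -2.50 in batch 1 and -2.53 in batch 2 for retinoic acid, and -1.10 and -1.13 for IL-1α. The difference between batches was -0.04 for retinoic acid (95% confidence interval -0.54 to 0.47) and -0.03 for IL-1α (95% confidence interval -0.53 to 0.48), and neither passed the test.

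Chondrocyte markers moved with Capn6. All 8 kept markers (Col2a1, Acan, Col9a1, Col11a1, Comp, Matn1, Hapln1 and Sox9) fell with retinoic acid against untreated, with a median log2 difference of -2.86, and 6 of 8 fell with IL-1α, all but Col2a1 and Comp, with a median of -1.01. Their intensities were also summed on the linear scale, after background correction and quantile normalization and with the offset of 16 left in. The sums ranged from 62550 to 74085 on the untreated arrays, from 35394 to 47196 on the IL-1α arrays and from 10178 to 15446 on the retinoic acid arrays. The mean of the 8 markers lay below untreated by a log2 difference of -1.04 in batch 1 and -0.85 in batch 2 for IL-1α, beside -1.10 and -1.13 for Capn6. For retinoic acid the markers lay at -3.04 and -2.92, beside -2.50 and -2.53. The part of the chondrocyte markers' fall in the change of Capn6 was not tested. In RNA from whole explants, fewer cells of a type and less RNA per cell cannot be told apart. Other marker lists also fell in part with retinoic acid, 4 of 4 kept genes for synovial lining and fibroblasts, 3 of 4 for osteoblasts, 3 of 5 for neutrophils and 2 of 2 for adipocytes, while no kept gene of the erythroid and endothelial lists passed that test. With IL-1α against untreated, 3 of 4 kept osteoblast genes, 2 of 4 endothelial, 2 of 2 adipocyte and 2 of 2 skeletal muscle genes fell. Of 4 synovial lining and fibroblast genes, 2 fell and 1 rose with IL-1α, and of 5 macrophage and osteoclast markers, 2 rose and 1 fell. The part of these lists in the falls of Capn5 and Capn6 with IL-1α was not tested. Among all kept probes, 18.2% rose and 17.1% fell with retinoic acid, and 15.2% rose and 14.1% fell with IL-1α. Of 5 macrophage and osteoclast markers, 4 rose with retinoic acid (Csf1r, Cd68, Acp5 and Ctsk), and their part in the rise of other members was not tested either. The sum over these 5, on the same scale, ranged from 3960 to 6259 on the untreated arrays, from 7435 to 8159 on the IL-1α arrays and from 6598 to 9909 on the retinoic acid arrays.

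**Figure D3:**
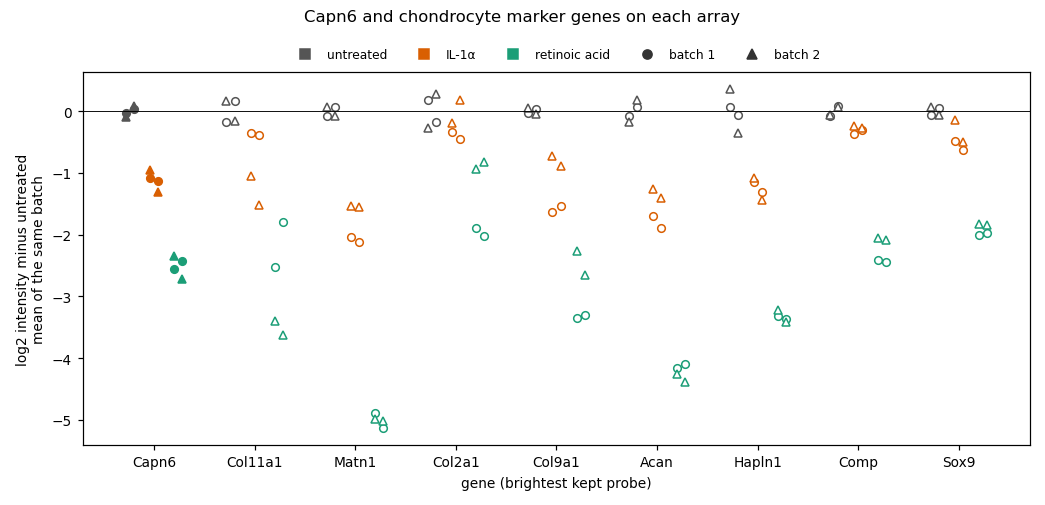
Log2 intensity minus the untreated mean of the same batch (y axis) for Capn6, filled, and 8 chondrocyte marker genes, open (x axis), with 1 point per array, circles for batch 1 and triangles for batch 2. Every retinoic acid array lies below the untreated arrays of its batch for Capn6 and for each marker, and for Capn6 the IL-1α arrays lie between them.

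The genes whose pattern was most like that of Capn6 were Acan, which encodes aggrecan (Pearson r = 0.994), Sox8, a transcription factor of the same subgroup as Sox9 (0.993), and Glt25d2, a collagen galactosyltransferase (0.993). These correlations are across 12 arrays after the mean of each batch was subtracted, and they describe patterns that the treatments shape in common.

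Capn5 moved the opposite way to Capn6 with retinoic acid and the same way with IL-1α. It encodes a calpain related to the nematode sex-determination proteinase TRA-3 and is known for mutations that cause an inherited inflammation of the eye. On probe ILMN_2627566 the means were 7.91 ± 0.42 untreated, 7.39 ± 0.27 with IL-1α and 8.64 ± 0.22 with retinoic acid (SD, n = 4). All retinoic acid arrays, the lowest at 8.36, were above all untreated arrays, the highest at 8.30, and the IL-1α arrays were below the untreated arrays within each batch. The log2 difference was 0.73 for retinoic acid against untreated (SE 0.12, limma adjusted p = 0.000505), -0.53 for IL-1α against untreated (SE 0.12, limma adjusted p = 0.00676) and 1.25 for retinoic acid against IL-1α (SE 0.12, limma adjusted p = 4.86e-06). The retinoic acid effect was 0.54 in batch 1 and 0.91 in batch 2, a difference of 0.37 (95% confidence interval -0.06 to 0.80) that did not pass the test (limma adjusted p = 0.436). The IL-1α effect was -0.67 in batch 1 and -0.38 in batch 2, and in batch 2 alone it did not pass (limma adjusted p = 0.145). The study shortlisted Capn5 along with other proteinase genes on these same arrays, so its direction here is not independent evidence. The study also measured Capn5 by qPCR, and those values are not part of the data used here. Its closest patterns across the 12 arrays, after subtraction of the batch means, were Mxra8, a cell-surface protein that arthritis-causing alphaviruses use for entry (Pearson r = 0.990), BC054438 (0.985) and Fbln1, a matrix glycoprotein of the fibulin family (0.984).

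The small subunit gene Capns1 rose with retinoic acid. Probe ILMN_2772249 read 10.83, 10.96, 10.95 and 10.82 on the untreated arrays, 11.05, 11.02, 11.03 and 10.99 on the IL-1α arrays and 11.55, 11.56, 11.35 and 11.35 on the retinoic acid arrays, with the batch 1 arrays first. The 3 treatments did not overlap, and untreated and IL-1α arrays of the 2 batches lay side by side. Retinoic acid raised it by a log2 difference of 0.56 over untreated (95% confidence interval 0.33 to 0.80, limma adjusted p = 0.00125), or 1.48-fold, with 0.66 in batch 1 and 0.47 in batch 2. Retinoic acid was above IL-1α by a log2 difference of 0.43 (95% confidence interval 0.19 to 0.66, limma adjusted p = 0.00861), with 0.52 in batch 1 and 0.34 in batch 2, and this did not pass in batch 2 alone (limma adjusted p = 0.131). IL-1α and untreated differed by 0.13 (95% confidence interval -0.10 to 0.37), which did not pass (limma adjusted p = 0.379), although every IL-1α array was above every untreated array and the 2-sided exact permutation test gave its smallest value, p = 0.0286.

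Capn2, the catalytic subunit that pairs with the product of Capns1, had 4 kept probes that did not tell the same story. Probe ILMN_2680979 was bright and detected on every array. It read 10.87, 10.90, 10.46 and 10.83 untreated, 10.65, 10.51, 10.53 and 10.49 with IL-1α and 10.44, 10.48, 10.55 and 10.29 with retinoic acid, batch 1 first. The untreated arrays were the highest except for replicate 1 of batch 2 at 10.46, which lay among the treated arrays. The log2 difference of retinoic acid against untreated was -0.33 (95% confidence interval -0.60 to -0.06) and did not pass the test (limma adjusted p = 0.0567), and it was -0.43 in batch 1 and -0.23 in batch 2. In 9 of 23 settings it passed. It did so when untreated replicate 1 of batch 2 was left out (-0.45, limma adjusted p = 0.0101) or retinoic acid replicate 1 of batch 2 was (-0.42, limma adjusted p = 0.0299), and without the former the IL-1α difference passed as well (-0.34, limma adjusted p = 0.0429). Among the patterns most like this probe were those of Pscd3, a guanine nucleotide exchange factor for ARF proteins (Pearson r = 0.975), and Arhgap21, a GTPase-activating protein (0.965), across the 12 arrays after subtraction of the batch means.

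The Capn2 probes ILMN_2620030 and ILMN_1235077 differed mainly by batch. Probe ILMN_2620030 read 5.64 to 6.50 on the 6 arrays of batch 1 and 8.85 to 9.06 on the 6 arrays of batch 2. Probe ILMN_1235077 went the other way, at 6.63 to 7.42 in batch 1 and 4.99 to 5.59 in batch 2, where the lowest array, untreated replicate 1, was not detected. The batch 2 minus batch 1 difference was 2.87 (SE 0.12) for the first and -1.81 (SE 0.15) for the second, while ILMN_2680979 differed by -0.12 (95% confidence interval -0.32 to 0.09). Over the 12 arrays with batch means subtracted, the pair ILMN_2620030 and ILMN_1235077 had a Pearson r of -0.81, and the highest r between any 2 of the 4 probes was 0.20, for ILMN_2680979 and ILMN_1235077. The r of -0.81 includes the dim readings of both probes. Probe ILMN_2683586 was detected only on the 6 batch 2 arrays, where it read 5.18 to 5.38. On batch 1 arrays it was not above background, at 4.94 to 5.37, so the ranges of the batches overlapped. Its batch 2 minus batch 1 difference was 0.16 (95% confidence interval -0.05 to 0.37) and did not pass (limma adjusted p = 0.160). That difference passed with scaling to one median (0.48, limma adjusted p = 0.00130). None of the 4 probes passed the test in any of the 3 treatment comparisons over both batches. In batch 1 alone, ILMN_1235077 passed for IL-1α against untreated (-0.61, limma adjusted p = 0.0130) and for retinoic acid against IL-1α (0.62, limma adjusted p = 0.0125), and ILMN_2620030 passed for IL-1α against untreated in the other direction (0.61, limma adjusted p = 0.0357). The ILMN_2620030 call rests on its dim batch 1 readings. Where the probes lie on the Capn2 transcripts was not analysed here, and the part of sequence differences between the lines in these readings was not tested.

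**Figure D4:**
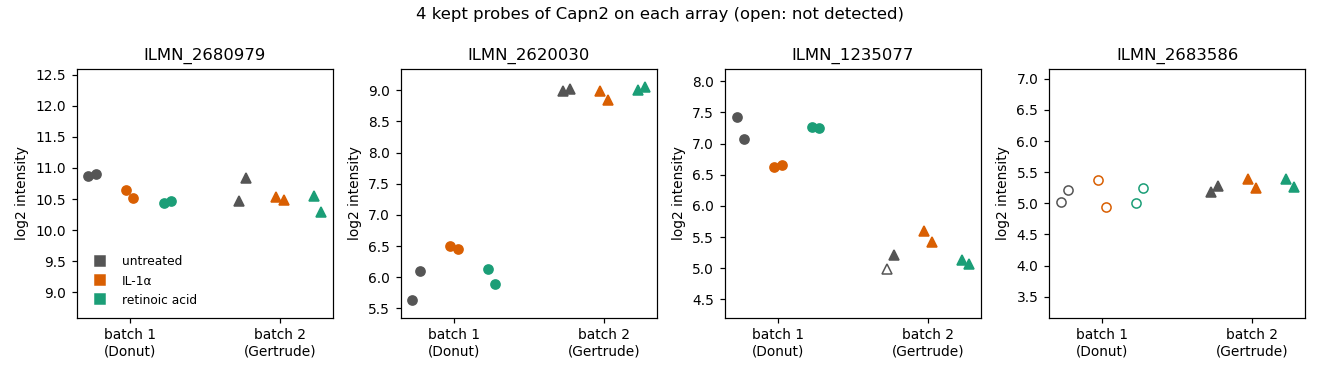
Log2 intensity (y axis) of the 4 kept Capn2 probes on each array, grouped by batch and mouse line (x axis), with colour for treatment and open symbols where the probe was not detected. ILMN_2620030 is higher and ILMN_1235077 lower in batch 2 than in batch 1, with no overlap, while ILMN_2680979 reads between 10.29 and 10.90 throughout.

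ILMN_1235077 was also the probe for which a difference in treatment effect between the batches passed the test. The test of that difference called 0 of 13 member probes for retinoic acid against untreated (0 also at an unadjusted limma p under 0.05), where 2.86% of all kept probes were called, 1 of 13 for IL-1α against untreated (2 unadjusted), where 4.82% were, and 1 of 13 for retinoic acid against IL-1α (2 unadjusted), where 8.76% were. With scaling to one median, the share of higher among all such calls went from 45.2% to 4.6% for IL-1α against untreated and from 54.3% to 93.1% for retinoic acid against IL-1α. On simulated data, the test found 41% of differences between batches of a log2 size of 1 and 98% of those of a size of 2. In batch 1 the IL-1α arrays, at 6.63 and 6.65, were below the untreated arrays, at 7.42 and 7.08. In batch 2 they were above, at 5.59 and 5.42 against 4.99 and 5.21. These batch 2 readings lie close to the lowest detected signal of their arrays, 4.86 to 5.07. The size of the batch 2 effect is therefore not well measured. The effect was -0.61 in batch 1 and 0.41 in batch 2, a difference of 1.02 (SE 0.22, limma adjusted p = 0.0160). The call was lost, at an adjusted p of 0.0554 to 0.0721, without untreated replicate 1 of batch 1, IL-1α replicate 1 or 2 of batch 1, or IL-1α replicate 1 of batch 2, in which cases the difference was 0.86, 1.01, 1.04 and 0.92. For retinoic acid against IL-1α the effect was 0.62 in batch 1 and -0.41 in batch 2, a difference of -1.02 (SE 0.22, limma adjusted p = 0.00929), which did not pass with scaling to one median (-0.82, limma adjusted p = 0.0522). ILMN_2620030 differed between the batches in the opposite direction, by -0.70 for IL-1α against untreated (SE 0.23, limma adjusted p = 0.0999) and by 0.58 for retinoic acid against IL-1α (SE 0.23, limma adjusted p = 0.139). The former passed without untreated replicate 2 of batch 1 (-0.94, limma adjusted p = 0.0314), and the latter with scaling to one median (0.93, limma adjusted p = 0.0394). On the batch 1 arrays ILMN_2620030 was dim.

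Capn7, a calpain with a domain that binds the membrane-remodelling ESCRT machinery, fell with retinoic acid. Probe ILMN_2675535 read 7.09 and 7.37 untreated, 7.27 and 7.12 with IL-1α and 6.87 and 6.37 with retinoic acid in batch 1. In batch 2 it read 8.58 and 9.02 untreated, 8.65 and 8.62 with IL-1α and 8.44 and 8.18 with retinoic acid. The retinoic acid arrays were the lowest within each batch, whereas across the batches all treatments overlapped. The log2 difference of retinoic acid was -0.55 from untreated (SE 0.15, limma adjusted p = 0.0117) and -0.45 from IL-1α (SE 0.15, limma adjusted p = 0.0361), and that of IL-1α from untreated was -0.10 (95% confidence interval -0.43 to 0.22). The call against untreated was lost without untreated replicate 2 of batch 1 (-0.45, adjusted p = 0.0606), retinoic acid replicate 2 of batch 1 (-0.43, adjusted p = 0.0572) or untreated replicate 2 of batch 2 (-0.45, adjusted p = 0.0524), in batch 2 alone (-0.49, adjusted p = 0.0829) and with scaling to one median (-0.35, adjusted p = 0.219). The call against IL-1α was lost without either IL-1α array of batch 1, retinoic acid replicate 2 of batch 1, IL-1α replicate 1 of batch 2 or retinoic acid replicate 2 of batch 2, with differences of -0.46 to -0.33 and adjusted p of 0.0692 to 0.157. It passed in 13 of 23 settings, and was also lost with scaling to one median (-0.30, adjusted p = 0.327), with no filter on detection (adjusted p = 0.109), and in batch 1 alone (-0.58, adjusted p = 0.0522) and batch 2 alone (-0.33, adjusted p = 0.251).

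Capn10, known as a diabetes susceptibility gene, rose with IL-1α on the probe that was detected on every array. Probe ILMN_2758503 read 7.26, 7.15, 6.75 and 6.64 untreated, 7.57, 7.55, 7.09 and 7.14 with IL-1α and 7.22, 7.46, 7.13 and 6.83 with retinoic acid, batch 1 first. The IL-1α arrays were above the untreated arrays within each batch. The log2 difference was 0.39 for IL-1α (95% confidence interval 0.14 to 0.64, limma adjusted p = 0.0233) and 0.21 for retinoic acid (95% confidence interval -0.04 to 0.46), which did not pass. The IL-1α call was lost, with differences of 0.35 to 0.40 and adjusted p of 0.0571 to 0.0719, without either IL-1α array of batch 1, untreated replicate 2 of batch 1, untreated replicate 2 of batch 2 or IL-1α replicate 2 of batch 2. It was also lost with scaling to one median (0.43, adjusted p = 0.0699), in batch 1 alone (0.35, adjusted p = 0.0802) and in batch 2 alone (0.42, adjusted p = 0.100). The second probe, ILMN_1251808, was detected on all 6 arrays of batch 2 but on 1 of 6 in batch 1. It passed in none of the comparisons, and its IL-1α difference of -0.29 (SE 0.13, limma adjusted p = 0.120) had the opposite sign to that of the first.

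Capn3, the muscle calpain whose loss causes a limb-girdle muscular dystrophy, was at the edge of detection. Its kept probe ILMN_2695626 read 4.81 to 5.55 and was detected on 2 of 4 arrays of each treatment, and its differences between treatments, from -0.08 to 0.06, did not pass the test. Of 5 skeletal muscle markers on the array, 2 were kept (Acta1 and Tnnt3, of which Tnnt3 fell with retinoic acid), and Ckm and Myh1 were detected on 0 arrays.

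For calpastatin, the inhibitor, the probe with a clear signal did not pass in any treatment comparison over both batches. Cast probe ILMN_1253558 read 8.20, 7.98, 8.0 and 8.60 untreated, 8.01, 7.78, 8.27 and 8.57 with IL-1α and 7.75, 7.60, 8.17 and 8.33 with retinoic acid, batch 1 first, and all treatments overlapped. Its log2 difference from untreated was -0.23 with retinoic acid (95% confidence interval -0.50 to 0.04) and -0.04 with IL-1α (95% confidence interval -0.31 to 0.23). The retinoic acid difference was -0.42 in batch 1 and -0.05 in batch 2. It passed in batch 1 alone (limma adjusted p = 0.0291) and when untreated replicate 1 of batch 2 was left out (-0.35, limma adjusted p = 0.0307). The patterns most like it were those of 1110034O24Rik (Pearson r = 0.940), 9030619K07Rik (0.930) and Pogk (0.922), across the 12 arrays with batch means subtracted.

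The other kept Cast probe, ILMN_2629959, was dim and was detected only on the 6 arrays of batch 2, so that 2 of 4 arrays of each treatment measured it. There it read 5.52 and 5.34 untreated, 5.96 and 5.75 with IL-1α and 5.65 and 5.59 with retinoic acid, and on the batch 1 arrays it read 4.68 to 5.35 without being detected. Limma called it higher with IL-1α than untreated (log2 difference 0.48, SE 0.11, adjusted p = 0.00696) and lower with retinoic acid than with IL-1α (-0.36, SE 0.11, adjusted p = 0.0275). In batch 2, where it was measured, those differences were 0.42 and -0.23, and neither passed in that batch alone (limma adjusted p = 0.0865 and 0.303). The second call was also lost without any of 6 arrays, namely IL-1α replicate 1 or 2 of batch 1, retinoic acid replicate 1 or 2 of batch 1, IL-1α replicate 1 of batch 2 and retinoic acid replicate 1 of batch 2, with differences of -0.38 to -0.29 and adjusted p of 0.0543 to 0.116. Scaling to one median ended both calls, at 0.33 (limma adjusted p = 0.130) and -0.14 (limma adjusted p = 0.573), and the second was lost too with normalization within each batch (-0.29, adjusted p = 0.0602) and with an offset of 50 (-0.19, adjusted p = 0.0733).

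Batch, which is also mouse line, moved a share of the member probes near that of all kept probes. The batch test set 6 arrays against 6 without the replicate block, so its count is not set against those of the treatments. In batch 2 against batch 1, 10 of 13 member probes passed, 6 higher and 4 lower in batch 2, where 76.3% of all kept probes passed (33.4% higher and 42.9% lower). With scaling to one median the split was very different, as 12 of 13 passed, 11 higher and 1 lower, and 88.4% of all probes called were higher, against 43.8% before. Beside the pair of Capn2 probes, Capn7 was higher in batch 2 by 1.57 and Capn6 by 1.32 (SE 0.12 and 0.10). Capn10 ILMN_1251808 was called higher as well, but only 1 of its 6 arrays in batch 1 was above background, at 5.36, against 6.20 to 7.20 in batch 2, so that the size of its difference is not well measured. Cast ILMN_1253558 was higher in batch 2 by 0.44, and Cast ILMN_2629959, undetected in batch 1, was at least 1.21-fold higher. Capn5 (-0.51), Capn10 ILMN_2758503 (-0.44) and Capn3 (-0.27) were lower in batch 2, but these 3 turned to 0.37, 0.48 and 0.07 when arrays were scaled to one median, which moved the median of all kept probes from -0.13 to 0.51. The call for Capn3 was lost without any of 8 arrays, all but untreated replicate 1 and retinoic acid replicate 2 of each batch, with differences of -0.27 to -0.21 and limma adjusted p of 0.0566 to 0.115. The Capn3 probe was detected on 2 of 6 arrays in batch 1 and on 4 of 6 in batch 2, so its difference is not well measured. The Capns1 probe (-0.08, 95% confidence interval -0.26 to 0.10) did not pass and turned to 0.44 with that scaling, and ILMN_2680979 of Capn2 turned to 0.46.

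**Figure D5:**
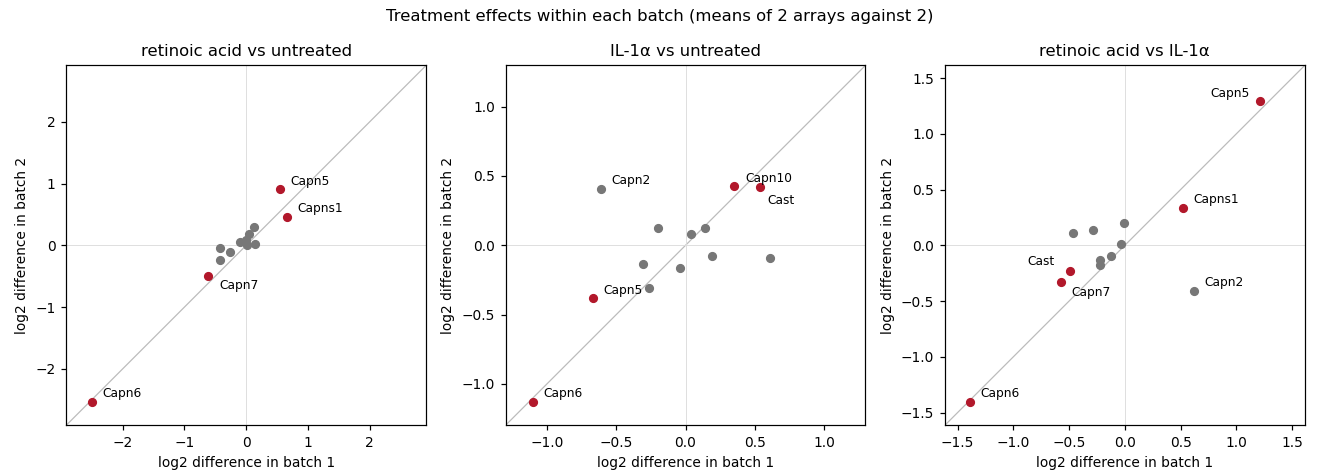
Log2 difference in batch 2 (y axis) against that in batch 1 (x axis) for the 13 kept probes in each of the 3 comparisons, from the means of 2 arrays against 2, with red for an adjusted p under 0.05 over both batches and the line of equal effects in grey. Capn6 lies close to the line in each panel, and Capn2 ILMN_1235077 lies in opposite directions in the 2 batches in both comparisons with IL-1α.

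The rest of the family was little seen. Of 7 other calpain genes on the array, Capn8, Capn9, Capn11, Capn12, Capn13 and Capns2 were detected on 0 arrays, and Capn15, listed as Solh, was kept and did not pass in any comparison (log2 differences of 0.01 to 0.09). Of 4 penta-EF-hand proteins outside the calpains, which share the calcium-binding domain of the conventional subunits, 2 were kept. Pef1 rose with IL-1α (0.48, SE 0.11, limma adjusted p = 0.00694), and Sri, which encodes sorcin, fell with retinoic acid (-0.36, SE 0.12, limma adjusted p = 0.0385).

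Of 18 cytoskeletal and adhesion genes whose proteins are known calpain substrates, 15 were kept. With retinoic acid against untreated, 7 rose, 1 fell and 7 did not pass (median log2 difference 0.33, beside 0.02 over all kept probes). In that comparison 18.2% of all kept probes were called higher and 17.1% lower. With IL-1α against untreated, 2 rose and 3 fell (median 0.13), and 4 rose and 0 fell in retinoic acid against IL-1α (median 0.22, beside -0.03 over all kept probes). The shares of all kept probes were 15.2% higher and 14.1% lower, then 15.2% and 15.8%. Each list gene was read on its brightest kept probe. Of the 11215 probes detected on all 12 arrays, 4861 passed in retinoic acid against untreated, a higher share than over all kept probes. Flna, the actin cross-linker filamin A, rose with retinoic acid by 1.11 (SE 0.12, limma adjusted p = 8.09e-06), and Vim, the intermediate filament vimentin, fell by 0.98 with retinoic acid and by 0.82 with IL-1α. Ptpn1, a tyrosine phosphatase, rose with both agents, by 0.85 with retinoic acid and 1.18 with IL-1α, and so did Cttn, the actin-binding cortactin, by 0.79 and 0.60. Anxa1, annexin A1, rose with retinoic acid by 0.76. Ctnnb1, which encodes β-catenin, fell by 0.79 with IL-1α and differed from untreated by 0.06 with retinoic acid, which did not pass. These changes concern RNA, and the cutting of the proteins was not measured on the arrays.

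Calcium is what activates the conventional calpains, and of 16 genes for its entry, stores and sensing, 14 were on the array and 12 were kept. With retinoic acid against untreated, 2 rose, 3 fell and 7 did not pass (median 0.12, beside 0.02 over all kept probes). Among all kept probes, 18.2% were called higher and 17.1% lower, and the share of this list is near that background. Trpv4, a cation channel of chondrocytes that responds to mechanical and osmotic load, fell by 2.70 (SE 0.15, limma adjusted p = 2.32e-08), from 9.38 ± 0.37 to 6.68 ± 0.44 (SD, n = 4). Itpr1, a receptor that releases calcium from stores, rose by 1.28 (SE 0.12), and Atp2a2, the pump that refills them, by 1.18 (SE 0.14). Atp2b1, a pump of the cell membrane, fell by 0.59 and Itpr3 by 0.52. With IL-1α against untreated 1 of 12 passed, the channel subunit Orai1, which rose by 0.34 (SE 0.11, limma adjusted p = 0.0309), and Trpv4 differed by -0.03. In that comparison 29.3% of all kept probes passed.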

How the data were processed

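The authors deposited linear probe intensities of 12 Illumina mouse bead arrays that had been neither background-subtracted nor normalized. They also deposited a detection score, a fraction between 0 and 1 that rises with intensity, and 1 minus this score was used as the detection p. The bead-summary software is not given in the sources used here. Groups came from the sample labels, and 0 columns of values were left without a sample. The study describes 3 mice per treatment and serum-free culture, whereas the labels give serum and 4 arrays per treatment, and all 12 arrays were used. The neqc function of limma 3.58.1 in R 4.3.3 corrected background from the detection p, quantile-normalized and took log2 with an offset of 16. The filter asked for a detection p under 0.05 on 4 or more arrays and removed 28432 probes. Following the study's methods, lmFit and eBayes fitted treatment beside a 4-level factor that joins batch with replicate, with Benjamini-Hochberg adjustment over all kept probes. Further models had treatment by batch, and treatment and batch. A probe undetected on every array of a batch gives only a bound, which was set against the lowest detected signal of each array. On simulated data, 90% of log2 changes of 1 were recovered for retinoic acid against untreated. These changes were planted only in probes detected on all 12 arrays, and fewer probes changed than were called in the data. Every member probe is named, and other genes come from lists that name up to 6 called genes each by size of change. Members and lists were chosen with earlier results of these data known. The number of arrays limits the precision. Background correction, scaling, offset, filter, model and left-out arrays were varied, and analyses of each batch alone were added after seeing the data. A gene that the rule on similar patterns would name is not reported here.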

Additional observations from a re-analysis of the deposited data

Results flagged for a closer look

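On the Capn2 probe ILMN_2680979, the untreated replicate 1 array of batch 2 read 10.46, far from the nearest of the other 3 untreated arrays at 10.83. Its gap was 0.841 of the range of the group, and it was the only one marked among 39 groups of 4 arrays examined. Chance marks about 1 group in 20 when all 4 arrays share the same distribution. Each group here joins 2 arrays of each batch, and a probe that differs by batch is hard to mark. That rate therefore does not apply to these groups. The Capn2 probe ILMN_1235077 had effects that differed between the batches by 1.02 for IL-1α against untreated (limma adjusted p = 0.0160) and by -1.02 for retinoic acid against IL-1α (limma adjusted p = 0.00929), 2 of 39 such differences examined. Both comparisons share the IL-1α arrays. In batch 2 ILMN_1235077 read close to the lowest detected signal, so the size of these differences is not well measured.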

How the results depend on the processing

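With treatment alone in the model, without batch and replicate, the members called by limma were 2 of 13 for retinoic acid against untreated, 0 for IL-1α against untreated and 2 for retinoic acid against IL-1α, and all probes called were 2215, 1327 and 1984, against 6436, 5334 and 5656. At an unadjusted p under 0.05, 2 members passed for IL-1α against untreated in that model. With scaling to one median the members were 3, 2 and 3, and all probes for IL-1α against untreated were 3104. That scaling moved the median of all probes from 0.02 to 0.14 for retinoic acid against untreated, left 0 members with an IL-1α effect that differed between batches (2 at an unadjusted p under 0.05), gave 1 for retinoic acid against IL-1α (Capn2 ILMN_2620030 in place of ILMN_1235077), and turned the batch differences of Capn5 (0.37), Capn2 ILMN_2680979 (0.46), Capn3 (0.068), Capn10 ILMN_2758503 (0.48) and Capns1 (0.44). In batch 2 alone, 1 member and 2973 probes passed for IL-1α against untreated and 2 members for retinoic acid against IL-1α. Among probes detected on all 12 arrays, which hold 8 member probes without ILMN_1235077, 0 members differed between batches in either comparison with IL-1α (1 and 1 at an unadjusted p under 0.05), and 6 differed in level. Leaving out 1 array at a time gave 3 to 6, 3 to 5 and 3 to 5 members and 5149 to 6472, 3725 to 5467 and 4594 to 5792 probes in the 3 comparisons, in the order above, 0 to 0, 0 to 2 and 1 to 1 members for the differences between batches, and 9 to 10 for batch. Capn6 (-2.61 to -2.32) and Capns1 (0.47 to 0.82) kept their calls in retinoic acid against untreated in all 23 settings, and so did Capn5 in retinoic acid against IL-1α.

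The replicate block changed the counts of members from 5, 4 and 5 without it (treatment and batch in the model) to 4, 4 and 5, and the counts over all probes from 6752, 5702 and 5938. With the replicate block the differences between batches stayed at 0, 1 and 1 members and batch at 10. Arrays with the same replicate number deviated together with correlations of 0.00 to 0.06 in batch 1 and -0.11 to 0.39 in batch 2, so the numbers were not shown to pair the arrays. For dim probes, such as Capn3, Cast ILMN_2629959 and, in batch 2, Capn2 ILMN_1235077, the signal over background limits what can be read.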
